A study of Homo sapiens with 6 samples.

Results

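EPH receptors are receptor tyrosine kinases, and ephrins are the membrane-bound ligands that they meet on neighbouring cells. Contact starts forward signalling in the cell that carries the receptor and can start reverse signalling in the cell that carries the ephrin. A-type ephrins are held in the membrane by a lipid anchor and B-type ephrins span it with a cytoplasmic tail. In the mouse intestine, EphB2 and EphB3 on crypt cells and B-type ephrins on differentiated cells form opposed gradients that keep the cell layers sorted, and both receptors are known targets of β-catenin and TCF, the nuclear effectors of Wnt signalling.

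The genes described are the receptors EPHA1, EPHA2, EPHA4, EPHB2, EPHB3 and EPHB4 and the ligands EFNA1, EFNA4, EFNB1 and EFNB2, and a probe set was taken as a member where the platform annotation names one of these genes alone. This gave 18 probe sets of 9 of the 10 genes, out of 54675 probe sets in all, which name 19775 genes alone. Of these, 13 probe sets belong to 5 receptors and 5 probe sets to 4 ephrins. EPHB2 had no probe set under this rule and was not analysed here.

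The cells were HT29, a human colon adenocarcinoma line, so each group is a model made of 1 line. The groups were 3 samples treated with NS398, a selective inhibitor of cyclooxygenase-2 dissolved in DMSO, and 3 controls, which the methods describe both as DMSO vehicle and as untreated. NS398 was given at the highest of the concentrations that the study tried, for several days in medium without serum, and each sample was hybridised on 1 whole-genome Affymetrix array. Neither the genotype of the line nor any pairing of cultures is given in the labels.

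Differences are log2 values, NS398-treated minus control, and their standard errors (SE) come from a limma fit whose prior variance follows the signal level (the variance-trend test). Where probe sets are compared with each other, the SE comes instead from the variances of their log2 ratios within each group, without limma. A probe set is called changed when its adjusted p is under 0.05 after Benjamini-Hochberg adjustment over all 54675 probe sets. Directions follow the deposited labels. They are opposite to those that the study gives, for EPHB3 and for other genes that it lists, and whether the array labels or the sign of the study's contrast is turned round was not settled. If the labels were exchanged, every rise in NS398-treated samples given here would be a fall and every fall a rise. The study calls the samples of a group biological replicates, but no label names separate cultures. The p-values therefore measure only how these samples vary, which may be in part technical, and precision is limited by the 6 arrays.

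Signals were deposited on a linear scale, 1 per probe set and array, with a median of 76 to 80.2 in the NS398 arrays and 65 to 80.1 in the control arrays. No probe set was at 0 in any array, the lowest signals being 0.1 to 0.3, so a signal above 0 does not show detection. Of 9 epithelial markers, EPCAM, the epithelial cell adhesion molecule, had a geometric mean of 26131 in NS398 arrays and 25358 in controls. CDX1 and CDX2, transcription factors of the intestinal epithelium, were dim, with 18.3 to 45.4 and 21.4 to 89.5 in the NS398 arrays, against 12.0 to 45.8 and 29.5 to 89.3 in controls. EPCAM, CDX1 and CDX2 were named after their values were seen. The summed signal of the 9 epithelial markers was 125531 to 133279 in NS398 arrays and 108530 to 123063 in controls. By the variance-trend test 2 of the 9 were called, in opposite directions. KRT20, a keratin of differentiated intestinal epithelium, was higher (17811 in NS398 arrays and 8022 in controls, 2.22-fold, limma adjusted p = 0.000169). VIL1, the microvillus protein villin, was lower on its brightest probe set (2030 in NS398 arrays and 3313 in controls, 1.63-fold, limma adjusted p = 0.00896). The mean over the probe sets of VIL1, fitted and adjusted over genes, was -0.41 and did not pass (limma adjusted p = 0.222). In plain limma neither gene was called (adjusted p = 0.0972 for KRT20 and 0.211 for VIL1). The summed signal of 6 fibroblast markers was 739 to 945 in NS398 arrays and 429 to 614 in controls, that of 6 endothelial markers 258 to 340 in NS398 arrays and 186 to 304 in controls, and that of 4 leukocyte markers 188 to 229 in NS398 arrays and 195 to 336 in controls. Of these non-epithelial markers, 1 passed the variance-trend test (LUM, with 215 in NS398 arrays and 45.5 in controls). Of all genes, each read from its brightest probe set, 10.1% passed this test. The ratio of 3′ to 5′ signal of ACTB, a sign of RNA integrity and labelling, was 1.45 to 1.71 in NS398 arrays and 1.27 to 1.33 in controls (exact permutation p = 0.1, two-sided, the smallest that 3 against 3 arrays allow). That of GAPDH was 1.04 to 1.21 in NS398 arrays and 0.969 to 1.08 in controls (exact permutation p = 0.5). The 18S rRNA signal was 23625, 12397 and 4825 in NS398 arrays, against 3453, 3783 and 4856 in controls (exact permutation p = 0.2, two-sided), so NS398 replicates 1 and 2 were above all other arrays. The part of these differences in the results below was not tested.

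By the variance-trend test 2 of the 18 member probe sets changed, 1 of EPHB3 and 1 of EFNB2, and both fell in the arrays labelled NS398-treated (with the labels exchanged, both would have risen). EPHB3 fell 1.64-fold on one of its probe sets and EFNB2 fell 1.46-fold on one of its own. Both probe sets of EPHB4, the receptor that prefers ephrin-B2, read higher in every NS398 array than in every control array, without passing the test. The largest differences were those of 3 dim probe sets of EPHA4, between -2.67 and -1.77, and none of them passed.

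The share called, 2 of 18 or 11.1%, stood beside 6.43% of all probe sets in either direction and 3.17% in the lower direction. Bright probe sets passed more often: above a mean log2 signal of 7, 14.6% of all probe sets were called, and 2 of the 11 members (18.2%). When a gene was represented by the brightest of its probe sets, 10.1% of all genes and 1 of 9 member genes (EFNB2) were called. These shares are close to their backgrounds at such small counts, and nothing particular to the family is read from them. In the plain limma fit, where the prior variance is the same for all signal levels, 0.0439% of all probe sets and 0 of the 18 members were called. At an unadjusted p under 0.05 there were 7 members (38.9%) by the variance-trend test, beside 18.5% of all probe sets. By plain limma there were 4 (22.2%), beside 14.6%. Above a mean log2 signal of 7 these shares were 45.5% and 18.2% of members, beside 34.5% and 21% of all such probe sets. The groups did not overlap in 5 of 18 members (27.8%), beside 24.1% of all probe sets. Above the same limit they did not overlap in 45.45% of members, beside 40.05%. Nothing is read from these shares either.

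Of the 18 differences, 7 were above 0 and 11 below, with a median of -0.16, beside 0.063 over all probe sets. Receptors had a median of -0.17 over 13 probe sets with a range of -2.67 to 0.96, and ephrins a median of -0.15 over 5 probe sets with a range of -0.55 to 0.31. Over all their probe sets receptors and ephrins had nearly the same median, and the wide range of the receptors came from dim probe sets. Over the 6 receptor probe sets above a mean log2 signal of 7 the median was 0.061. All 5 ephrin probe sets were above that limit, so their median stayed at -0.15. Without control replicate 1 the median of all receptor probe sets was 0.021, and without NS398-treated replicate 2 it was -0.41.

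**Figure D1:**
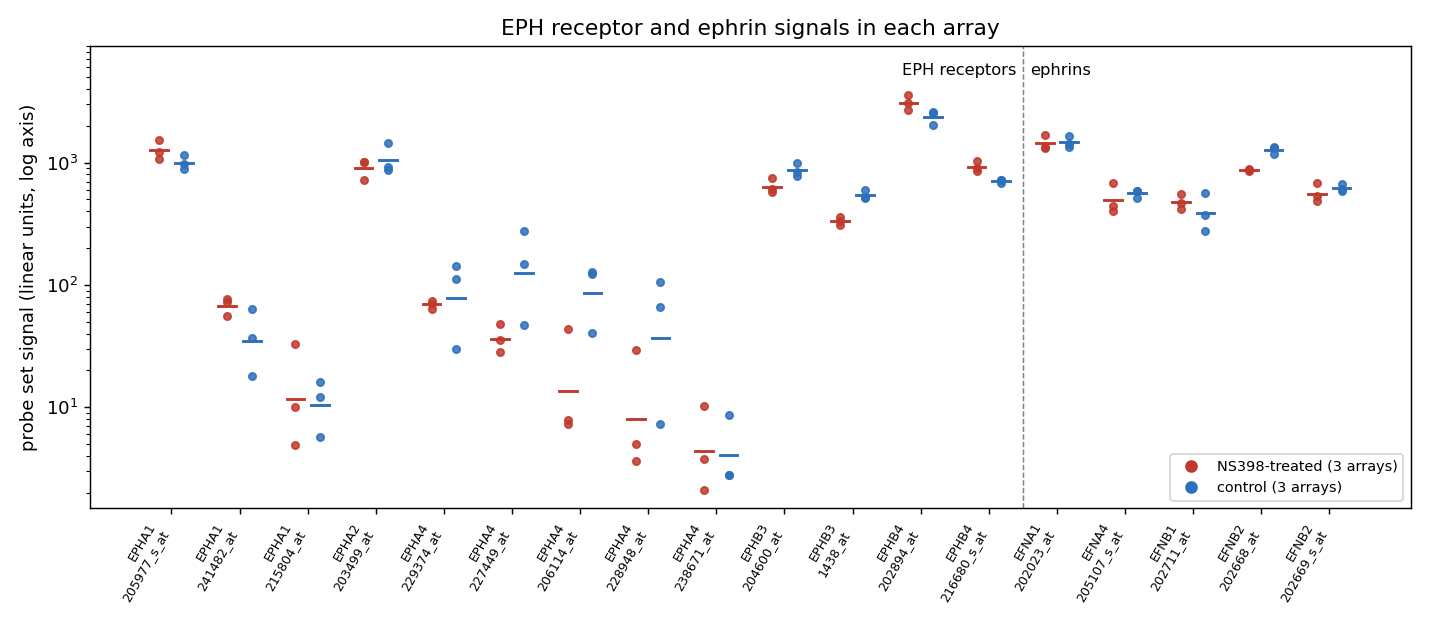
Signal of the 18 member probe sets in each array on a log axis, with NS398-treated arrays in red and control arrays in blue, and a bar at the geometric mean of each group of 3. In EPHB3 1438_at and EFNB2 202668_at all NS398 points lie below all control points, in both EPHB4 probe sets all lie above, and the 7 dim probe sets of EPHA1 and EPHA4 are widely scattered.

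EPHB3 has 2 probe sets. Its promoter is shown because EPHB3 is one of the genes called, with the 250 bases before the annotated start, chr3:184561535-184561784 on the + strand of GRCh38.p14 (RefSeq), 5′ to 3′, and capitals marking GC boxes, the motif GGGCGG or its reverse complement that Sp1-type factors bind. The same window of EFNB2, the other gene called, is chr13:106535663-106535912 on the - strand.
EPHB3: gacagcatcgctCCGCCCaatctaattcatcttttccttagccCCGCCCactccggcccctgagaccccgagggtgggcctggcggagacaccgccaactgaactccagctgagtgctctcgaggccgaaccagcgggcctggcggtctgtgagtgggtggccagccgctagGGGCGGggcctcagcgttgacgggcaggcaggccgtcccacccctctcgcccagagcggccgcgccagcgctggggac
EFNB2: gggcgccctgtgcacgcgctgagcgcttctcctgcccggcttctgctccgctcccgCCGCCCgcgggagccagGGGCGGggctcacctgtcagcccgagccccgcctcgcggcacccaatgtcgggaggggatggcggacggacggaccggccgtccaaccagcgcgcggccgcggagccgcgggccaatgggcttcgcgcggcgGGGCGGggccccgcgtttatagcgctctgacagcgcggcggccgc

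The EPHB3 window has a GC content of 70%, 21 CpG dinucleotides and 3 GC boxes, and that of EFNB2 has 78.4%, 40 and 3. All 9 measured member genes matched a RefSeq promoter, EPHA4 with 2, and GGGCGG was found on either strand in 10 of the 10 windows, overlapping matches counted, beside 42.6% of 35116 windows of the same length. The GC content of the member windows ran between 43.2% and 78.4%, beside a median of 58% over all windows. Only 1 EPHA4 window, at 43.2%, lay below that median. The 10 of 10 was not compared with windows of like GC content. The core CTTTGA, to which TCF and LEF factors bind, was found on either strand in 1 of the 10 windows, that of EPHA2 at base -202 from the start, beside 11.2% of all windows. GGGCGG and CTTTGA, read on either strand, can overlap by at most 1 base. A match is a description of the letters and not a site, and these windows hold only the first bases before the start.

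On probe set 1438_at, EPHB3 had signals of 333.5, 357.6 and 308.4 in the NS398 arrays, against 595.1, 516.2 and 525.5 in the control arrays. All 3 NS398 arrays were lower than all 3 controls. The difference was -0.71 ± 0.17 (SE, n = 3 each; 95% interval -1.08 to -0.34), a 1.64-fold decrease (1.27 to 2.11), with a limma adjusted p of 0.0277. On probe set 204600_at the signals were 570.5, 608.3 and 744.1 in NS398 arrays, against 844.6, 996.0 and 772.5 in controls. The groups were apart here as well, but NS398 replicate 3 and control replicate 3 lay close together. This difference, -0.44 ± 0.16 (-0.80 to -0.084), did not pass (limma adjusted p = 0.159).

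The 2 probe sets of EPHB3 thus pointed the same way. Their difference from each other, a comparison added after the values were seen, was -0.27 ± 0.22 (SE; exact permutation p = 0.3, two-sided, 0.45 over the 3 genes compared this way). The average of both probe sets was -0.58, with a limma adjusted p of 0.028 in a separate fit of gene averages, adjusted over genes. The call on 1438_at was lost in plain limma (adjusted p = 0.168) and in the fit without any single array, with limma adjusted p between 0.0551 and 0.0921, while the difference stayed between -0.76 and -0.65.

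EPHB4, a receptor that binds ephrin-B2 with preference and marks veins in the vasculature, was read by 2 probe sets. On 202894_at it had 3092.5, 2698.0 and 3542.2 in NS398 arrays, against 2049.7, 2580.7 and 2541.4 in controls. NS398 replicate 2 lay nearest to the controls. The difference was 0.38 ± 0.14 (0.079 to 0.68; limma adjusted p = 0.148). On 216680_s_at the signals were 897.9, 848.2 and 1038.0 in NS398 arrays, against 720.6, 715.9 and 686.6 in controls, with a difference of 0.39 ± 0.14 (0.076 to 0.70; limma adjusted p = 0.155). The groups were apart on both probe sets, yet neither passed the test. The differences of the 2 probe sets differed from each other by -0.0073 ± 0.13 (SE; exact permutation p = 1, two-sided).

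EPHA1, the receptor from which the family took its name, was bright on 1 of its 3 probe sets. On 205977_s_at (the suffix _s_at marks probes that match more than 1 transcript) it had 1070.6, 1215.9 and 1529.7 in NS398 arrays, against 1145.4, 893.3 and 967.5 in controls. NS398 replicate 1 lay below control replicate 1, so the groups overlapped. The difference was 0.34 ± 0.16 (-0.023 to 0.69; limma adjusted p = 0.308). The dim probe set 241482_at had 76.9, 72.3 and 55.8 in NS398 arrays and 36.8, 64.1 and 17.9 in controls, a difference of 0.96 ± 0.58 (limma adjusted p = 0.432), and 215804_at stayed between 4.9 and 32.8 in all arrays (0.18 ± 0.99).

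EPHA2, a receptor often abundant in carcinomas, had 721.9, 1012.0 and 1009.4 in NS398 arrays, against 1450.5, 865.6 and 915.6 in controls. The groups overlapped, and control replicate 1 was the highest of the 6 arrays. The difference was -0.21 ± 0.21 (-0.68 to 0.25; limma adjusted p = 0.669), and without control replicate 1 it was 0.021.

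EPHA4, a receptor that binds ephrins of both classes, was dim on all 5 of its probe sets. On 206114_at it had 7.8, 44.0 and 7.3 in NS398 arrays, against 40.8, 122.7 and 128.3 in controls. NS398 replicate 2 reached the level of control replicate 1, so the groups overlapped. The difference of -2.67 ± 0.84 (-4.52 to -0.81) had a limma adjusted p of 0.0966. Leaving out each array in turn gave a call in 1 of 6 fits, with limma adjusted p up to 0.3145. That fit was the one without NS398 replicate 2, at -3.51 with an adjusted p of 0.0431. On 227449_at the signals were 47.6, 35.5 and 28.5 in NS398 arrays, against 47.1, 275.0 and 147.3 in controls. Control replicate 1 lay among the NS398 arrays. The difference was -1.77 ± 0.61 (-3.10 to -0.44; limma adjusted p = 0.127). Here too 1 of the 6 such fits gave a call, with limma adjusted p up to 0.3654. It was the fit without control replicate 1, at -2.47 with an adjusted p of 0.0142.

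The probe set 228948_at of EPHA4 had 3.6, 29.1 and 5.0 in NS398 arrays and 7.3, 105.8 and 65.8 in controls, a difference of -2.20 ± 1.20 (limma adjusted p = 0.373). The remaining probe sets did not share this size: 229374_at, with 64.1 to 74.5 in NS398 arrays and 29.7 to 142.0 in controls, differed by -0.17 ± 0.56 and 238671_at, with signals of 2.1 to 10.3 in NS398 arrays and 2.8 to 8.7 in controls, by 0.090 ± 0.94. The average of all 5 was -1.34 (limma adjusted p = 0.315, adjusted over genes). After an offset of 32 was added to each signal, which damps dim values, the differences were -1.31 on 206114_at, -1.25 on 227449_at and -0.91 on 228948_at.

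**Figure D2:**
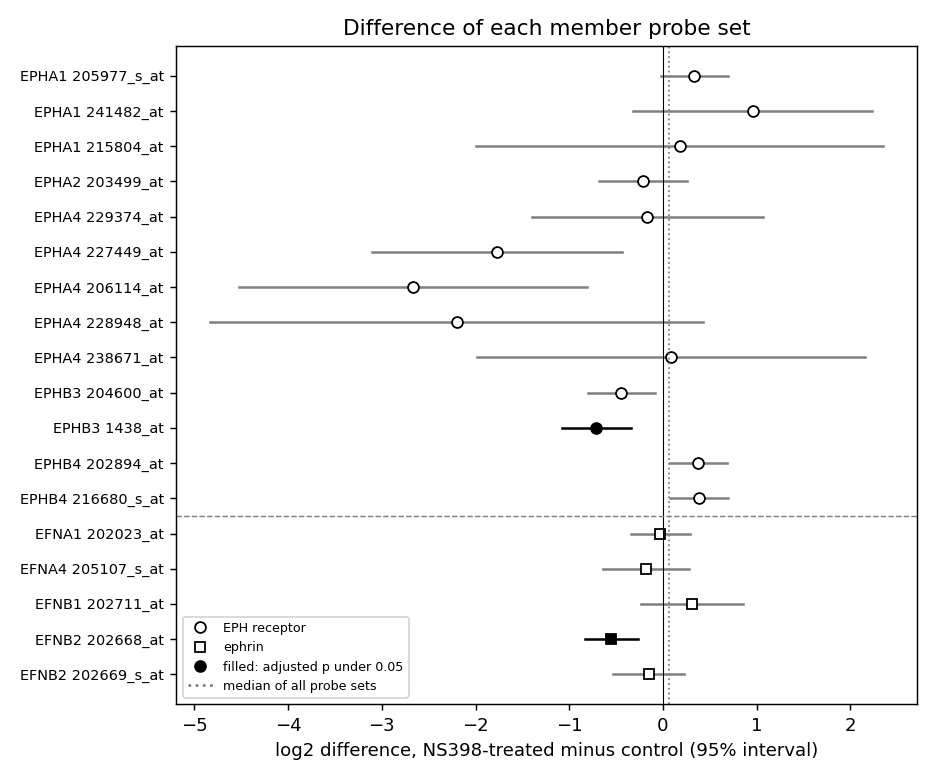
Difference of each member probe set, NS398-treated minus control, on the log2 scale with its 95% interval, receptors above the dashed line and ephrins below it. Filled symbols passed an adjusted p of 0.05 (EPHB3 1438_at at -0.71 and EFNB2 202668_at at -0.55), and the dotted line is the median of all probe sets, 0.063.

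Among the ephrins, EFNB2 was the gene called. EFNB2 encodes ephrin-B2, the transmembrane ligand of EPHB4 that marks arteries in the vasculature. On 202668_at it had 876.1, 854.5 and 888.5 in NS398 arrays, against 1328.3, 1175.2 and 1337.9 in controls. The NS398 arrays were close together and all below the controls. The difference was -0.55 ± 0.13 (-0.83 to -0.27), a 1.46-fold decrease (1.21 to 1.78), with a limma adjusted p of 0.0257.

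The other EFNB2 probe set, 202669_s_at, had 484.6, 528.7 and 677.4 in NS398 arrays, against 604.4, 587.9 and 672.7 in controls. The groups overlapped and the difference was -0.15 ± 0.17 (-0.53 to 0.22; limma adjusted p = 0.708). The difference between the 2 probe sets was -0.40 ± 0.14 (exact permutation p = 0.1, two-sided, 0.3 over the 3 genes). Their average was -0.35 (limma adjusted p = 0.146, adjusted over genes). The call on 202668_at was lost in plain limma (adjusted p = 0.222) and without NS398 replicate 1, 2 or 3 (limma adjusted p = 0.0885, 0.114 and 0.0641) or control replicate 3 (0.117). It was kept without control replicate 1 (0.0399) or 2 (0.0365).

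EFNB1, which encodes ephrin-B1, a transmembrane ligand of EPHB2 and EPHB3, had 421.1, 552.4 and 470.6 in NS398 arrays, against 560.4, 276.7 and 373.2 in controls. Control replicates 1 and 2 spanned the range of the NS398 arrays, and the difference was 0.31 ± 0.25 (-0.24 to 0.85; limma adjusted p = 0.581). EFNA1, the lipid-anchored ligand best known for binding EPHA2, had 1308.4, 1347.3 and 1691.3 in NS398 arrays, against 1654.7, 1433.5 and 1333.7 in controls. The groups overlapped throughout, with a difference of -0.029 ± 0.14 (-0.34 to 0.29; limma adjusted p = 0.950). EFNA4, another lipid-anchored ligand, had 401.2, 682.5 and 442.3 in NS398 arrays, against 587.4, 590.6 and 512.7 in controls. NS398 replicate 2 was the highest of the 6 arrays, and the difference was -0.18 ± 0.21 (-0.64 to 0.27; limma adjusted p = 0.714).

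Receptors were next set against an ephrin that they bind, by the difference of the log2 signals of the brightest probe sets within each array. Only the change of this difference with treatment is compared, since levels of different probe sets are not comparable. For EPHB4 and EFNB2 it was 1.82, 1.66 and 1.99 in NS398 arrays, against 0.63, 1.14 and 0.93 in controls. The groups were apart, and the change of 0.93 ± 0.18 (1.90-fold) had an exact permutation p of 0.1, two-sided, the smallest that the design allows, and 0.3 after adjustment over the 3 pairs. EFNB2 was read here from 202668_at, the probe set called, at -0.55. Its other probe set, 202669_s_at, differed by only -0.15, and the pair was not compared with that probe set.

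For EPHB3 and EFNB1 the difference was 0.44, 0.14 and 0.66 in NS398 arrays, against 0.59, 1.85 and 1.05 in controls. NS398 replicate 3 lay above control replicate 1. The change was -0.75 ± 0.40 (exact permutation p = 0.2, adjusted 0.3). For EPHA2 and EFNA1 it was -0.86, -0.41 and -0.74 in NS398 arrays, against -0.19, -0.73 and -0.54 in controls, a change of -0.19 ± 0.21 (exact permutation p = 0.4, adjusted 0.4). EPHB2 and EFNB1 could not be compared. No pair reached an adjusted p of 0.05, which this design cannot give.

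**Figure D3:**
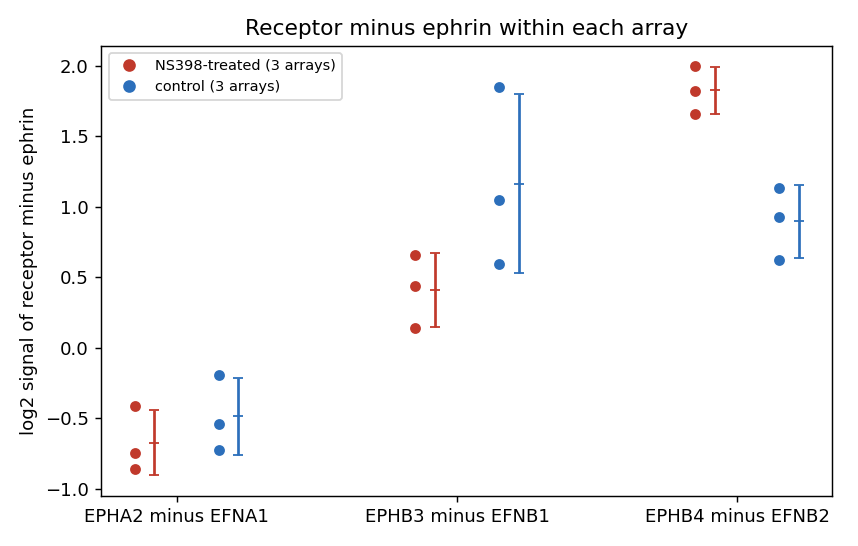
Log2 signal of a receptor minus that of an ephrin in each array for 3 pairs, NS398-treated in red and control in blue, with the mean and SD of each group beside the points. The NS398 points of EPHB4 minus EFNB2 (read from 202668_at), 1.66 to 1.99, lie above the control points, 0.63 to 1.14, and the groups overlap in the other pairs.

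The remaining family comprises 8 receptors and 4 ephrins with 32 probe sets, of which 0 were called by the variance-trend test and by plain limma, and 3 and 2 had an unadjusted p under 0.05. These 3 and 2 are 9.38% and 6.25%, beside 18.5% and 14.6% of all probe sets, and 6.43% and 0.0439% of all were called. Most of the 32 were dim: 26 had a mean log2 signal of 7 or less. The 22 receptor probe sets had a median difference of 0.083, and of the 10 ephrin probe sets 9 were below 0, with a median of -0.42. Beside these, 25036 of all 54675 probe sets were below 0. The 10 ephrin probe sets read only 4 genes, so they do not count as separate observations, and none was called. EFNA5, another lipid-anchored ephrin, had 444.6, 337.8 and 402.8 in NS398 arrays and 476.9, 662.7 and 533.3 in controls on 233814_at (a difference of -0.49, limma adjusted p = 0.176). The groups were apart but the test was not passed. On its other probe sets the groups overlapped and none passed, with differences of -0.41 (214036_at), -0.089 (227955_s_at) and -1.29 (207301_at). EPHA3, also a receptor for A-type ephrins, had 39.3, 11.9 and 2.0 in NS398 arrays and 0.8, 0.7 and 0.7 in controls on 211164_at (limma adjusted p = 0.0658). On 206071_s_at it had 19.9, 8.8 and 13.9 in NS398 arrays and 2.0, 2.2 and 3.9 in controls (limma adjusted p = 0.143). The groups overlapped on 206070_s_at (limma adjusted p = 0.702). All EPHA3 signals were below the median of their arrays. EFNA5 and EPHA3 were singled out after their values were seen.

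In the cytoplasm, EPH receptors act through SRC-family and ABL kinases, adaptors and exchange factors for small GTPases. Of 31 such effectors 28 were measured, and 4 fell and 0 rose by the variance-trend test, and the list median was 0.026. CDC42, a small GTPase of the actin cytoskeleton, had 2140.8, 1728.7 and 1507.7 in NS398 arrays, against 3192.6, 2616.3 and 3271.8 in controls, so that all NS398 arrays were lower (-0.76 ± 0.15, limma adjusted p = 0.0105). The tyrosine kinase ABL1 fell by 0.58 ± 0.14 on the log2 scale (geometric means of 1212 in NS398 arrays and 1817 in controls, limma adjusted p = 0.0315). VAV3, an exchange factor that EPH receptors recruit, fell by 1.01 ± 0.25 (141 in NS398 arrays and 284 in controls, limma adjusted p = 0.0327), and the adaptor GRB2 by 0.44 ± 0.12 (2871 in NS398 arrays and 3896 in controls, limma adjusted p = 0.0460). These proteins serve many other receptors too. In plain limma 0 of the 28 passed. At an unadjusted p under 0.05 there were 9 (32.1%) by the variance-trend test, beside 24.5% of all genes. By plain limma there were 5 (17.9%), beside 17.6%.

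Of 17 genes of reverse signalling, ephrin cleavage and phosphatases, 16 were measured, and 1 rose and 0 fell, and the list median was -0.033. The gene that rose was PARD6B, a PAR6-type polarity protein (PAR6 binds the tail of ephrin-B1), at 0.72 ± 0.17 (geometric means of 747 in NS398 arrays and 453 in controls, limma adjusted p = 0.0301). Of 16 Wnt and TCF factors and targets, 15 were measured, and 2 fell and 0 rose, and the list median was 0.025. LGR5, a receptor of intestinal stem cells and Wnt target, had 68.5, 125.6 and 133.0 in NS398 arrays, against 1123.3, 957.6 and 1034.3 in controls (-3.31 ± 0.26, limma adjusted p = 4.47e-05). The NS398 arrays were far below the controls. SP5, a Wnt-induced transcription factor, differed by -1.87 ± 0.32 (133 in NS398 arrays and 488 in controls, limma adjusted p = 0.00496). Plain limma called 0 in either list, with 2 and 3 genes at an unadjusted p under 0.05, against 3 and 6 by the variance-trend test. Over all genes these unadjusted shares were 17.6% in plain limma and 24.5% by the variance-trend test. In either direction 10.1% of all genes were called, and in these lists 4 of 28 (14.3%), 1 of 16 (6.25%) and 2 of 15 (13.3%). These are small counts near that background. By direction, 960 of all 19775 genes were called lower and 1035 higher. With so few genes called per list, nothing is read from the directions.

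The calls in these lists did not all withstand each single array being left out. CDC42 was lost without NS398 replicate 2 (limma adjusted p = 0.0543) or control replicate 3 (0.0654). ABL1 was lost without NS398 replicate 1 or 2 or control replicate 2 or 3 (limma adjusted p between 0.104 and 0.140), VAV3 without NS398 replicate 1 or 3 or control replicate 2 or 3 (up to 0.106), GRB2 without any single array (0.0555 to 0.179) and PARD6B without NS398 replicate 1 or 2 or control replicate 1 or 2 (up to 0.141). LGR5 and SP5 kept their calls without each single array. Over all alternatives, plain limma included, ABL1, VAV3, GRB2 and PARD6B kept their calls in 8 of 14, 9 of 15, 6 of 15 and 7 of 15 alternatives, LGR5 in 14 of 15 and SP5 in 13 of 14, and in each of them the direction was kept.

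**Figure D4:**
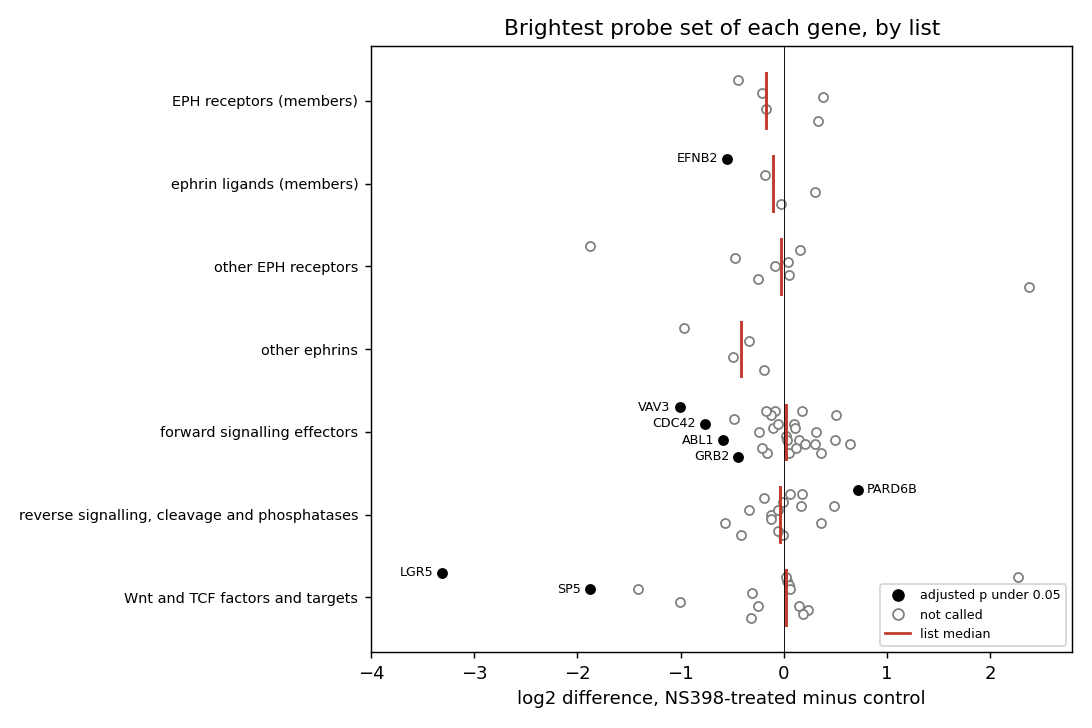
Log2 difference, NS398-treated minus control, of the brightest probe set of each gene in the receptor and ephrin lists and in the lists of signalling and Wnt genes, with the list median in red. Filled points passed an adjusted p of 0.05 and are named, with LGR5 at -3.31 lowest among them and PARD6B at 0.72 the one above 0.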

How the data were processed

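Total RNA of 3 NS398-treated and 3 control HT29 samples, grouped by the treatment named in the labels, was measured on Affymetrix HG-U133 Plus 2.0 arrays. The deposited intensity values are linear probe set signals that the authors had summarised and scaled, with a mean of 500 in each array after removal of 2% at each end. They share no quantiles, so they differ from the gcRMA output with quantile normalisation described in the methods, and which summary made them is not given in the sources used here. The submitters' processing notes name affy. The log2 of each value was taken without an offset, and arrays were not normalised again. Probe sets were named by the platform annotation (of 54675, 41097 name 1 gene, 1801 several and 11777 none).

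All probe sets were fitted in limma 3.58.1 (R 4.3.3), lmFit and eBayes with a variance trend and robust priors (median prior df 7.07, against 1.36 in plain limma), treatment being the only term. Members, gene lists, tests and alternatives were chosen with earlier results of these data known. Every member probe set is named, then called genes of the other family lists, then up to 4 called genes with the smallest p of each other list, a gene being read from its brightest probe set. Genes named outside this rule, their values known, are marked. Alternatives were plain limma, median centring, quantile normalisation, mean log2 filters of 4 and 7 (signals of 16 and 128), an offset of 32, array weights, the replicate number as a block, the mean of all probe sets and leaving out each array. With the filters p was adjusted over the probe sets kept, and with the mean of all probe sets over the 19775 genes. The fit was also run on simulated data with planted differences. Their spread followed the signal level alone, as the variance-trend test assumes, so that run cannot choose between this fit and plain limma. Plots were made in Python 3.11.15 with matplotlib 3.10.9.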

Additional observations from a re-analysis of the deposited data

How the results depend on the processing

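The count of 2 called member probe sets was 0 in plain limma and 0 with the replicate number as a block, and between 0 and 2 when single arrays were left out (0 without NS398 replicate 1, NS398 replicate 3 or control replicate 3). The genes were not always the same: without control replicate 1 the calls were EFNB2 202668_at and EPHA4 227449_at, and without NS398 replicate 2 the call was EPHA4 206114_at. Whether the replicate numbers pair the samples is not known. The deviations of same-numbered arrays from their group means had correlations of -0.14, -0.063 and -0.10. Deviations from means of 3 arrays cannot settle the pairing. With the block, EPHB3 1438_at and EFNB2 202668_at had limma adjusted p of 0.0803 and 0.0796. Both kept their direction in every alternative run. The 3513 calls over all probe sets were 24 in plain limma and 1826 to 3984 with single arrays left out, the lower counts being those without NS398 replicate 1 (1826), 2 (1896) or 3 (2340) or control replicate 3 (1876).

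The receptor median of -0.17 was -0.29 after median centring, 0.061 above a mean log2 of 7, and -0.41 to 0.021 with single arrays left out. It moved by less than the spread between replicates (0.108) in 10 of 15 alternatives. The ephrin median moved by less than the spread between replicates (0.179) in 15 of 15 alternatives, between -0.28 and -0.034. Some uncalled differences changed sign when single arrays were left out: EPHA1 215804_at (-0.56 to 0.81), EPHA2 203499_at (-0.35 to 0.021), EPHA4 229374_at (-0.86 to 0.26), EPHA4 238671_at (-0.53 to 0.63, and -0.032 after median centring and -0.065 after quantile normalisation) and EFNA1 202023_at (-0.14 to 0.058). The causes were not tested. The filters leave out dim probe sets and the mean of all probe sets gives no count of probe sets. Dim signals limit EPHA4 and the dim EPHA1 probe sets most, with a within-group SD of 0.675 to 1.85 on the log2 scale, against 0.0770 to 0.387 in the bright members.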
